A study of Mus musculus with 9 samples.

Results

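The set described here is the actin filament and podosome machinery, 47 mouse genes chosen by symbol from a list made for their roles in building, cutting, anchoring and pulling on actin filaments. All 47 were found among the 49315 genes of the count table, and all 47 passed the filter on low counts that left 15963 genes to test. The cells were RAW 264.7, an established mouse macrophage line that can be driven towards osteoclasts with RANKL, the cytokine that starts osteoclast formation. RNA was sequenced from 3 groups with 3 libraries each. Cells of the pamidronate+GGOH group received 140 µM pamidronate and 5.25 µM geranylgeraniol (GGOH), cells of the pamidronate group received 140 µM pamidronate, and control cells received neither. By the growth notes, every group, the control included, was grown for 24 h and given 20 ng/ml RANKL, the compounds went on at 48 h in all, and cells were collected after a further 24 h, although the control samples are labelled as having had no treatment. No group here received GGOH alone. The control titles speak of biological replicates, but separate cultures are not stated for the other groups, so p-values measure the spread between these libraries, which may be technical.

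Actin is a small protein that assembles into filaments from monomers held by profilin and thymosins, branches through the Arp2/3 complex when a WASP family protein switches the complex on, and is shortened by cofilin and gelsolin. Macrophages and osteoclasts gather such branched filaments into podosomes, dot-like adhesions with an actin core and a surrounding ring of plaque proteins such as talin, vinculin and paxillin, linked by crosslinkers and pulled by myosin II. Osteoclasts pack podosomes into the sealing zone beneath which bone is resorbed. Pamidronate is a nitrogen-containing bisphosphonate, a class that blocks farnesyl diphosphate synthase and with it the supply of isoprenoid lipids that anchor many signalling proteins to membranes, and GGOH is an alcohol that cells can convert to geranylgeranyl diphosphate, one of those lipids. The comparison of pamidronate with control therefore addressed the effect of the bisphosphonate, and that of pamidronate+GGOH with pamidronate the effect of adding the alcohol back.

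Libraries held 14356069 to 18957968 counts. The leading principal component of all tested genes, with 68.9% of the variance, placed pamidronate+GGOH replicates 1 to 3 at -29.9, -18.9 and 11.5, between pamidronate, at -84.6 to -69.6, and control, at 79.3 to 93.3. Summed TPM of the 9 macrophage markers found was 13496 to 19827 with pamidronate+GGOH and 8521 to 12638 with pamidronate, against 25862 to 31175 in control, with no marker at 0, and 8 of the 9 fell with pamidronate. Lyz2 made up most of this sum, with a mean of 13284 TPM with pamidronate+GGOH and 8451 TPM with pamidronate, against 24379 TPM in control. With pamidronate+GGOH against pamidronate, 5 of the 9 rose, 1, Cd68, fell, and 3, Lyz2 among them, were not called. The 10 osteoclast markers summed to 969 to 1343 TPM with pamidronate+GGOH and 407 to 575 TPM with pamidronate, against 833 to 1321 TPM in control, and Calcr, the calcitonin receptor, was at 0 in the pamidronate and control groups. Car2, carbonic anhydrase 2, made up most of the osteoclast sum, with a mean of 835 TPM with pamidronate+GGOH and 155 TPM with pamidronate, against 928 TPM in control. Of the 8 osteoclast markers tested, only Car2 and Nfatc1 fell with pamidronate, while Ctsk, Itgb3, Atp6v0d2 and Dcstamp rose, by 2.81, 2.39, 2.22 and 1.14 on the log2 scale, and Acp5 and Mmp9 did not pass the test. Mitochondrial genes took 5.43 to 6.31% of counts with pamidronate+GGOH and 3.71 to 5.19% with pamidronate, against 10.4 to 10.8% in control. These values moved with the results below, and their part in them was not tested. In bulk RNA, fewer cells of a type and less RNA per cell cannot be told apart.

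Most of the actin machinery fell with pamidronate. Of the 47 members, 37 fell, 7 rose and 3 did not pass the test in edgeR at an adjusted p under 0.05, where 32.9% of all tested genes were called lower and 36.2% higher, 69.2% in all. The median log2 fold change of the members was -1.13, against 0.08 over all tested genes, and 26 members were at least 2-fold lower, a size reached by 16.9% of all tested genes. The 7 counted as higher were Tpm1, Wasl, Lasp1, Ptk2b and Tmsb10, and the scarce Eps8l1 and Cttn, which passed the filter on low counts only through libraries in which they were high, so that their calls were in part fixed by the filter. The 3 that did not pass were Arpc1a, Actn4 and Tln1. In 44 members the pamidronate and control libraries did not overlap, as in 73.4% of all tested genes. With upper-quartile scaling, which moved the median of all tested genes to 0.28, the members split into 8 higher and 36 lower, and all tested genes into 43.9% higher and 27.0% lower.

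With GGOH added, most members stood higher than with pamidronate alone and lower than in control. Compared with pamidronate, 29 members rose, 5 fell and 13 did not pass the test, where 25.2% of all tested genes were called higher and 23.6% lower, 48.8% in all. The median log2 fold change was 0.46 for the members and 0.00 over all tested genes, and 9 members were at least 2-fold higher and 3 at least 2-fold lower, as were 11.3% and 6.67% of all tested genes. With upper-quartile scaling the counts were again 29 and 5, with 25.6% and 23.0% of all tested genes. Compared with control, 35 members were lower, 6 higher and 6 not called, where 26.0% of all tested genes were called lower and 26.3% higher, 52.4% in all. The members counted as higher include the scarce Cttn, which passed the filter on low counts only through treated libraries. The members' median was -0.59 against 0.02 over all tested genes, and 7 members were at least 2-fold lower, as were 4.62% of all tested genes. Libraries did not overlap in 40 members between pamidronate+GGOH and pamidronate and in 41 between pamidronate+GGOH and control, as in 59.6% and 58.2% of all tested genes. With upper-quartile scaling this last comparison gave 29 members lower and 7 higher, with 16.3% and 36.5% of all tested genes, and an all-gene median of 0.23. These comparisons share libraries, so their values stand side by side and are not independent of each other. The mean of the pamidronate+GGOH group lay between the other means in 41 members, as it did for 58.6% of all tested genes. The order pamidronate, then pamidronate+GGOH, then control, from low to high, held for 34 members, and its reverse for 7.

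**Figure D1:**
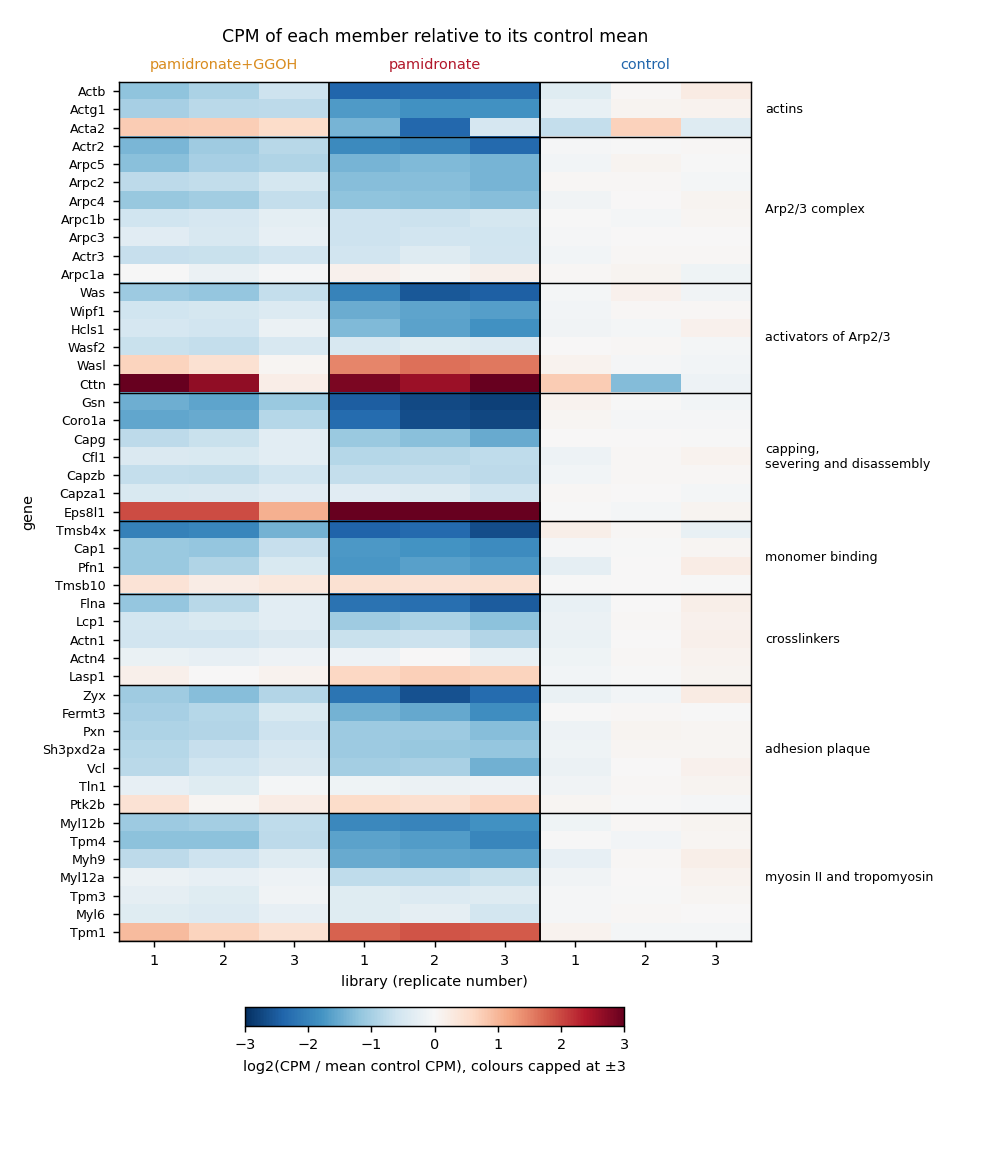
Colours give log2 of the CPM in each library over the mean control CPM of the same gene, for 47 genes in rows by function and 9 libraries in columns, capped at 3 in either direction. Blue covers most rows of the pamidronate libraries, paler blue the pamidronate+GGOH libraries, and red rows mark genes that were higher with pamidronate, among them Wasl, Cttn, Eps8l1 and Tpm1.

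Taking the median over the members, the libraries of the pamidronate+GGOH group were the most spread. Over the 44 members other than the scarce Acta2, Cttn and Eps8l1, the median coefficient of variation was 12.2% with pamidronate+GGOH and 5.90% with pamidronate, against 6.90% in control. Replicate 3 of pamidronate+GGOH was the library of its group nearest the control mean in 43 members and the highest of its group in 38. Without that library, 28 members rose and 5 fell in pamidronate+GGOH against pamidronate, and 38 were lower and 5 higher than in control. Among the control libraries, replicate 1 was the lowest in 30 members.

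Promoters were read for the members because so many moved together. Among the 42 members with a promoter window in RefSeq on GRCm38.p6, from 250 bases before to 50 after the annotated start, 4 (9.52%) held a CArG box, the motif known to be bound by serum response factor, searched on both strands, which are read alike because the motif is palindromic. Over all 27025 genes with a window, 1.81% held one. No window was matched for Actb, Cttn, Pxn, Ptk2b and Sh3pxd2a, so their promoters were not searched. The 4 were Actg1, Vcl, Myl6 and Arpc4, and 3 are printed below to show where the motif, in capitals, lies in an actin, a plaque and a myosin gene. The Actg1 window is chr11:120348446-120348745 on the minus strand, with the motif at -90 to -81 from the start. The Vcl window is chr14:20929148-20929447 on the plus strand, with the motif at -227 to -218, and the Myl6 window is chr10:128492960-128493259 on the minus strand, with the motif at -50 to -41. Myl6 as counted runs from 128490860 to 128493875, so its whole window lies inside the counted gene and not before its outermost start.
Actg1: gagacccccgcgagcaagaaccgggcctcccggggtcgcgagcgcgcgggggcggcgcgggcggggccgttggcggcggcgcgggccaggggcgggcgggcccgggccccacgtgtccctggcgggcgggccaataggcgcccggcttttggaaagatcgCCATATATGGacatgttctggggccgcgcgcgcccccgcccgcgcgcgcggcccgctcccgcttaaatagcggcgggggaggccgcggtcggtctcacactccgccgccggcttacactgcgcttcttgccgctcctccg
Vcl: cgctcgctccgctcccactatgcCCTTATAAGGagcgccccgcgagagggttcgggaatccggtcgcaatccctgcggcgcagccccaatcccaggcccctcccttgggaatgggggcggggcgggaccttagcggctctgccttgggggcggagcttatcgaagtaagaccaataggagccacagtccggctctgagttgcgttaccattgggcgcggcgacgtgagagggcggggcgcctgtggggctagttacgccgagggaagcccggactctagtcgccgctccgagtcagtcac
Myl6: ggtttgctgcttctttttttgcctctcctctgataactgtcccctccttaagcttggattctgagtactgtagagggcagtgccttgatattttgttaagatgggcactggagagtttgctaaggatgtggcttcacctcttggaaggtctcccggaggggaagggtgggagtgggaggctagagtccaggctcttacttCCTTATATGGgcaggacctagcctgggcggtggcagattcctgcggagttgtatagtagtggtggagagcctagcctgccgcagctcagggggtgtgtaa
In Arpc4 the motif lay at -250 to -241. With pamidronate these 4 genes changed by -1.78, -1.13, -0.39 and -1.24 on the log2 scale, in the order Actg1, Vcl, Myl6 and Arpc4. The core letters CCGGAA were in the windows of 15 of the 42 (35.7%), against 16.7% of all genes, and the GC box GGGCGG in 33 (78.6%), against 38.2%, each searched on both strands. A match describes the sequence and does not show that a factor was bound. The 27025 genes were not limited to those tested here, while all members passed the filter on low counts, so the shares compare unlike sets. Whether the motifs are particular to the members was not tested.

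Actins, the filament subunits, gave the largest part of the members' RNA. All 3 fell with pamidronate and all 3 rose with GGOH relative to pamidronate, and 2 of them, Actb and Actg1, stayed below control. Actb, beta-actin, the main cytoplasmic actin (GRCm38 chromosome 5, 142903115 to 142906754), had 2972, 3579 and 4523 CPM in the pamidronate+GGOH libraries and 1335, 1372 and 1429.7 CPM in the pamidronate libraries, against 5381, 7094 and 8244 CPM in the control libraries. The groups did not overlap, the pamidronate libraries were nearly equal, and replicate 1 of the control was the lowest of its group. Actb changed by -2.32 ± 0.18 (SE) on the log2 scale with pamidronate against control, a level 5.01-fold lower (edgeR adjusted p = 5.05e-08), and by 1.42 ± 0.17 (SE) with pamidronate+GGOH against pamidronate (adjusted p = 1.34e-05), which left it -0.90 ± 0.17 (SE) against control (adjusted p = 0.000537). Actg1, gamma-actin, the other cytoplasmic isoform (chromosome 11, 120345690 to 120348542), had 264, 301 and 308 CPM in the pamidronate+GGOH libraries and 161, 149.7 and 151 CPM in the pamidronate libraries, against 449, 560.2 and 571 CPM in the control libraries. It followed the same order with a smaller change, -1.78 ± 0.11 (SE) with pamidronate against control (adjusted p = 7.04e-09) and 0.92 ± 0.11 (SE) with pamidronate+GGOH against pamidronate (adjusted p = 8.06e-06). Of the 50-base words of Actg1 transcripts, 37.4% also occur in other genes, mostly the processed pseudogene Gm12715, so reads could have been shared between them, and 9.12% of those of Actb do.

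Acta2, the smooth muscle actin, was scarce. It had 1.65, 1.62 and 1.42 CPM in the pamidronate+GGOH libraries and 0.367, 0.190 and 0.681 CPM in the pamidronate libraries, against 0.584, 1.57 and 0.742 CPM in the control libraries. The pamidronate and control libraries overlapped, and all pamidronate+GGOH libraries lay above all pamidronate libraries. Its change was -1.22 ± 0.50 (SE) with pamidronate against control (adjusted p = 0.0402), a call lost with upper-quartile scaling (0.0816), with limma-voom (0.055) and without pamidronate replicate 1, pamidronate replicate 2 or control replicate 2 (0.0985, 0.145 and 0.238), and 1.90 ± 0.47 (SE) with pamidronate+GGOH against pamidronate (adjusted p = 0.0039). The 6 smooth muscle markers, Actg2, Cnn1, Des, Myh11, Smtn and Tagln, summed to 4.93 to 5.82 TPM with pamidronate+GGOH and 5.40 to 7.15 TPM with pamidronate, against 2.31 to 3.63 TPM in control, so their sum did not fall where Acta2 did. All 6 were scarce, and only Tagln averaged lower with pamidronate (0.433 CPM) than in control (0.631 CPM).

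Per transcript length, the 3 actins summed to 4248 ± 905 TPM with pamidronate+GGOH and 1422 ± 33.4 TPM with pamidronate, against 6335 ± 1587 TPM in control (SD, n = 3 each). All 47 members summed to 1.13 ± 0.178% of all TPM with pamidronate+GGOH and 0.607 ± 0.0229% with pamidronate, against 1.59 ± 0.223% in control. Actb was 31.7 to 36.6% of that sum with pamidronate+GGOH and 20.2 to 22.5% with pamidronate, against 31.8 to 40.8% in control. The difference did not rest on Actb, since the other 46 members still summed to 0.664 to 0.839% of all TPM with pamidronate+GGOH and 0.452 to 0.502% with pamidronate, against 0.917 to 1.05% in control. Actb had the highest mean TPM of the members in all 3 groups, at 3934 ± 878 TPM with pamidronate+GGOH and 1278 ± 31.9 TPM with pamidronate, against 5883 ± 1509 TPM in control. The next highest was Tmsb4x with pamidronate+GGOH and Tmsb10 with pamidronate, against Tmsb4x in control.

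**Figure D2:**
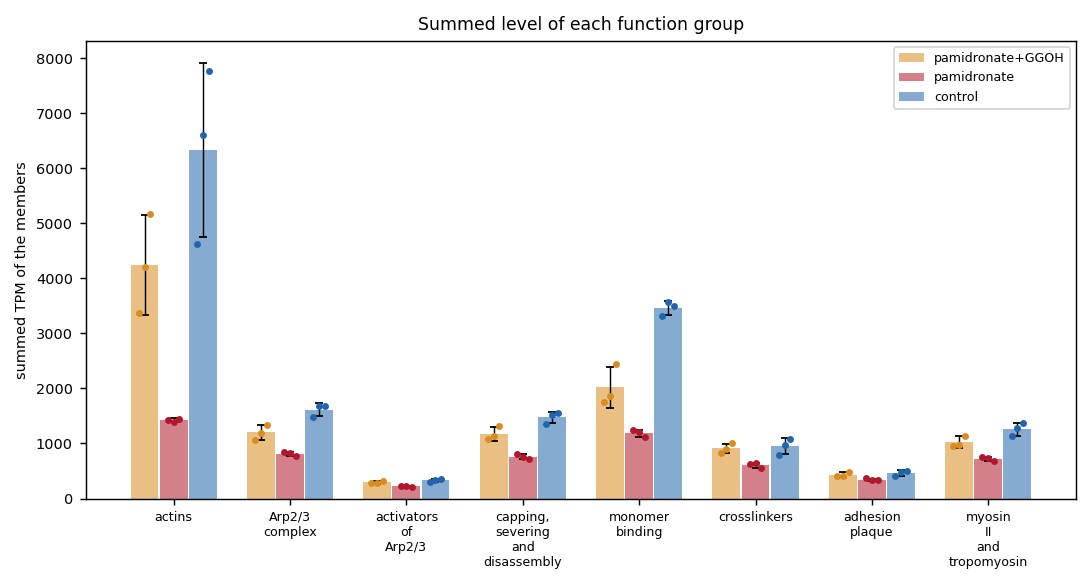
Bars give the mean summed TPM of the genes in each of 8 function groups, error bars the SD over 3 libraries and points the libraries. In all 8 groups the pamidronate bar is the lowest, and the actins have the highest bars, at 4248 TPM with pamidronate+GGOH and 1422 TPM with pamidronate, against 6335 TPM in control.

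The Arp2/3 complex, which starts a new filament as a branch on the side of an old one, fell with pamidronate in 7 of its 8 measured subunits, and none rose. With GGOH, 5 subunits rose relative to pamidronate and none fell, and the 7 subunits other than Arpc1a were lower than control. Actr2, the actin-like subunit Arp2 (chromosome 11, 20062304 to 20112913), had 163, 201 and 237 CPM in the pamidronate+GGOH libraries and 112, 106 and 84.4 CPM in the pamidronate libraries, against 415, 422 and 433 CPM in the control libraries. Every pamidronate library lay below every pamidronate+GGOH library, and these below every control library. Actr2 was 4.20-fold lower with pamidronate than in control (-2.07 ± 0.13 (SE) on the log2 scale, adjusted p = 1.88e-08), the largest change among the subunits, and rose by 0.99 ± 0.13 (SE) with GGOH over pamidronate (adjusted p = 3.65e-05).

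Arpc2, a scaffold subunit and the subunit with the highest mean TPM (chromosome 1, 74236084 to 74268209), had 278, 287 and 328 CPM in the pamidronate+GGOH libraries and 195, 197 and 182 CPM in the pamidronate libraries, against 488, 485 and 455 CPM in the control libraries. The groups lay in the same order with no overlap. It changed by -1.31 ± 0.09 (SE) with pamidronate against control (adjusted p = 1.94e-08) and 0.64 ± 0.09 (SE) with pamidronate+GGOH against pamidronate (adjusted p = 4.67e-05). Actr3, the actin-like partner of Arp2, had 231, 235 and 249.9 CPM in the pamidronate+GGOH libraries and 252, 284 and 251 CPM in the pamidronate libraries, against 354, 384 and 382 CPM in the control libraries. Here the treated groups lay together below control, at -0.51 ± 0.09 (SE) with pamidronate against control (adjusted p = 9.64e-05) and -0.14 ± 0.09 (SE) with pamidronate+GGOH against pamidronate, which did not pass the test (adjusted p = 0.205). Of the 50-base words of Actr3, 26.3% occur in other genes, nearly all in the pseudogene Gm8822.

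The remaining subunits divided further. Arpc5 and Arpc4 fell by 1.37 and 1.24 on the log2 scale with pamidronate, and Arpc1b and Arpc3 fell by 0.59 each. Arpc1b shares 18.2% of its exon bases with Pdap1 on the opposite strand, and Arpc4 12.2% with Ttll3 on the same strand. Reads could have been shared between these genes. With GGOH over pamidronate, Arpc3, Arpc4 and Arpc5 rose by 0.24, 0.29 and 0.33. The calls of Arpc3 and Arpc4 were lost when any one pamidronate library was left out (adjusted p = 0.0588 to 0.108), and that of Arpc4 also without pamidronate+GGOH replicate 3 (0.0841). Arpc1a, the other form of the Arpc1 subunit, had 18.6, 16.8 and 18.5 CPM in the pamidronate+GGOH libraries and 20.7, 19.7 and 20.9 CPM in the pamidronate libraries, against 19.4, 20.0 and 17.1 CPM in the control libraries. It was called in none of the 3 comparisons, with 0.11 ± 0.11 (SE) for pamidronate against control (adjusted p = 0.349), -0.18 ± 0.11 (SE) for pamidronate+GGOH against pamidronate (adjusted p = 0.168) and -0.07 ± 0.11 (SE) for pamidronate+GGOH against control (adjusted p = 0.601). With upper-quartile scaling the first of these was called higher (0.31, adjusted p = 0.0184).

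Among the activators of Arp2/3, the blood-cell proteins WASP (Was) and HS1 (Hcls1) fell with pamidronate while N-WASP (Wasl), the widely expressed relative of WASP, rose. Of the 6 genes, 4 fell and 2 were called higher, 1 of them the scarce Cttn. Relative to pamidronate, 3 rose with GGOH, 1 fell and 2 were not called. Was, WASP, the activator used in podosomes of blood cells (chromosome X, 8081453 to 8090498), had 24.2, 22.9 and 31.2 CPM in the pamidronate+GGOH libraries and 12.7, 8.79 and 9.29 CPM in the pamidronate libraries, against 49.4, 56.2 and 47.8 CPM in the control libraries. The groups did not overlap and pamidronate was the lowest. The level was 4.98-fold lower with pamidronate than in control (-2.31 ± 0.15 (SE), adjusted p = 1.73e-08) and changed by 1.35 ± 0.15 (SE) with pamidronate+GGOH against pamidronate (adjusted p = 8.56e-06). Wasl, N-WASP, the ubiquitous relative of WASP (chromosome 6, 24613805 to 24665009), had 87.7, 75.8 and 57.6 CPM in the pamidronate+GGOH libraries and 151, 174 and 166 CPM in the pamidronate libraries, against 59.6, 53.6 and 52.0 CPM in the control libraries. The order was turned round, with every pamidronate library above all others, and pamidronate+GGOH replicate 3 lay within the control range. Wasl was 2.97-fold higher with pamidronate than in control (1.57 ± 0.13 (SE), adjusted p = 1.42e-07) and changed by -1.15 ± 0.13 (SE) with pamidronate+GGOH against pamidronate (adjusted p = 7.98e-06). Against control the pamidronate+GGOH libraries were higher by 0.42 ± 0.13 (SE) (adjusted p = 0.0138), a call lost without pamidronate+GGOH replicate 1 (0.0799), control replicate 2 (0.0545) or control replicate 3 (0.0537).

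Hcls1, HS1, the blood-cell relative of cortactin that binds Arp2/3 and filaments (chromosome 16, 36934983 to 36963212), had 63.2, 59.6 and 78.9 CPM in the pamidronate+GGOH libraries and 35.8, 29.3 and 25.6 CPM in the pamidronate libraries, against 83.5, 86.5 and 98.1 CPM in the control libraries. The groups were apart, with the pamidronate+GGOH libraries just below control. It changed by -1.56 ± 0.13 (SE) with pamidronate against control (adjusted p = 1.94e-07) and 1.15 ± 0.13 (SE) with pamidronate+GGOH against pamidronate (adjusted p = 1.12e-05). Cttn, cortactin itself, was near the limit of detection, with 28, 14 and 3 counts in the pamidronate+GGOH libraries and 16, 13 and 20 counts in the pamidronate libraries, against 4, 1 and 2 counts in the control libraries. Cttn passed the filter on low counts only through the treated libraries, so it had to differ from control to be tested, and its difference from control is given as a description. The log2 fold change was 2.82 ± 0.75 (SE) for pamidronate against control, and replicate 3 of pamidronate+GGOH lay in the control range. Pamidronate+GGOH against control gave 2.59 ± 0.77 (SE), which is likewise a description. Cttn was counted as higher there, but not with limma-voom or without pamidronate+GGOH replicate 1 or control replicate 2. Pamidronate+GGOH against pamidronate gave -0.23 ± 0.56 (SE) (adjusted p = 0.76). Its levels of 0.589 TPM with pamidronate+GGOH and 0.600 TPM with pamidronate, against 0.0730 TPM in control, were far under those of Hcls1, at 75.8 and 29.8 TPM, against 80.4 TPM.

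Wasf2, WAVE2, which drives lamellipodia and is the activator with the highest mean TPM here (chromosome 4, 133130505 to 133199756), had 189, 183 and 217 CPM in the pamidronate+GGOH libraries and 217, 235 and 226 CPM in the pamidronate libraries, against 305, 311 and 289.9 CPM in the control libraries. Both treated groups lay below control, with -0.42 ± 0.09 (SE) for pamidronate (adjusted p = 0.00059) and -0.62 ± 0.09 (SE) for pamidronate+GGOH (adjusted p = 5.89e-05), and GGOH gave -0.20 ± 0.09 (SE) against pamidronate (adjusted p = 0.0688), which passed without pamidronate+GGOH replicate 3 (0.0332). Wipf1, the WASP-interacting protein that stabilises WASP, moved like Was, by -1.57 ± 0.09 (SE) with pamidronate against control (adjusted p = 3.84e-09) and 1.06 ± 0.09 (SE) with pamidronate+GGOH against pamidronate (adjusted p = 5.04e-07).

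**Figure D3:**
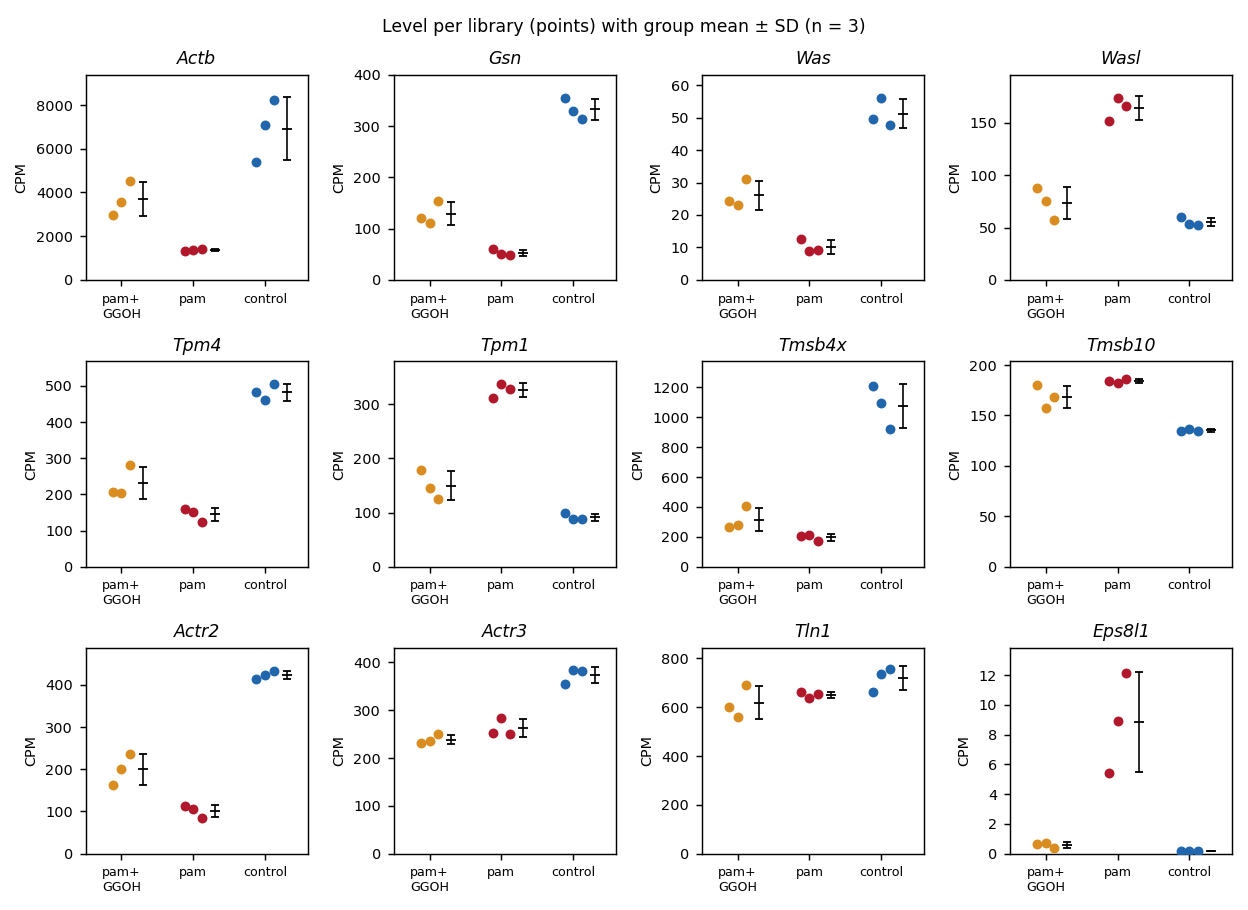
Points give CPM in each library for 12 genes, with the group mean and SD (n = 3) beside them, pam standing for pamidronate. Actb, Gsn, Was, Tpm4, Tmsb4x and Actr2 are lowest with pamidronate, Wasl, Tpm1 and Eps8l1 are highest there, and the Tln1 libraries of the 3 groups lie between 562 and 757 CPM.

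Of the 7 genes for capping, severing and disassembly, 6 fell with pamidronate and 1, the scarce Eps8l1, was called higher. Relative to pamidronate, 4 rose with GGOH, 1 fell and 2 were not called. Gsn, gelsolin, which severs filaments and caps their ends and is abundant in osteoclast podosomes (chromosome 2, 35256380 to 35307892), had 121, 112 and 154 CPM in the pamidronate+GGOH libraries and 59.8, 51.1 and 47.9 CPM in the pamidronate libraries, against 356, 329 and 315 CPM in the control libraries. The 3 groups were well separated. Gsn was 6.29-fold lower with pamidronate than in control (-2.65 ± 0.13 (SE), adjusted p = 1.72e-09), the largest fall among the members, rose by 1.29 ± 0.12 (SE) with GGOH over pamidronate (adjusted p = 1.7e-06) and stayed 2.58-fold lower than control (-1.37 ± 0.12 (SE), adjusted p = 1.63e-06). Capg, a gelsolin relative of macrophages that caps but does not sever (chromosome 6, 72544391 to 72562983), had 163, 176 and 227 CPM in the pamidronate+GGOH libraries and 130.3, 118 and 99.1 CPM in the pamidronate libraries, against 282, 285 and 278 CPM in the control libraries. The groups kept the same order. Its change was smaller, at -1.28 ± 0.12 (SE) with pamidronate against control (adjusted p = 4.96e-07) and 0.71 ± 0.12 (SE) with pamidronate+GGOH against pamidronate (adjusted p = 0.000295). Cfl1, cofilin, which severs old filaments and had the highest mean TPM of this group (chromosome 19, 5490455 to 5495201), had 328, 324 and 358 CPM in the pamidronate+GGOH libraries and 246, 251 and 261 CPM in the pamidronate libraries, against 401, 454 and 479 CPM in the control libraries. It changed by -0.82 ± 0.09 (SE) with pamidronate against control (adjusted p = 1.72e-06) and by 0.42 ± 0.09 (SE) with pamidronate+GGOH against pamidronate (adjusted p = 0.0016), and its call below control with pamidronate+GGOH (-0.40 ± 0.09 (SE), adjusted p = 0.00198) was lost with upper-quartile scaling (0.0629). Its exons overlap those of Snx32 on the opposite strand over 16.5% of their bases.

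Coro1a, coronin, a blood-cell filament regulator, fell by 2.56 ± 0.18 (SE) with pamidronate on the log2 scale (adjusted p = 4.41e-07) and rose by 1.28 ± 0.18 (SE) with GGOH over pamidronate (adjusted p = 0.000179). The subunits of the capping protein, Capza1 and Capzb, fell by 0.44 and 0.74 with pamidronate. With GGOH against pamidronate they stood at 0.02 ± 0.09 (SE) and 0.05 ± 0.08 (SE) (adjusted p = 0.86 and 0.612), neither of which passed the test, and Capza1 shares 64.5% of its 50-base words with other genes, mostly the pseudogene Gm3608. Eps8l1, a relative of the capping and bundling protein EPS8 (chromosome 7, 4460674 to 4480487), had 0.681, 0.685 and 0.368 CPM in the pamidronate+GGOH libraries and 5.44, 8.92 and 12.1 CPM in the pamidronate libraries, against 0.175, 0.168 and 0.185 CPM in the control libraries. All pamidronate libraries lay far above the rest, while the control libraries held 3 counts each. Eps8l1 passed the filter only through the pamidronate libraries, where its mean was 3.62 TPM, so its differences from them were in part fixed by the filter and are given as a description. The fitted log2 fold change was 5.59 ± 0.41 (SE) for pamidronate against control and -3.93 ± 0.34 (SE) for pamidronate+GGOH against pamidronate. Its call above control with pamidronate+GGOH (1.66 ± 0.57 (SE), adjusted p = 0.0237) was lost with limma-voom (0.156) and without pamidronate+GGOH replicate 1 or 2 or any one control library (0.0516 to 0.0731).

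Among the 4 genes whose proteins bind actin monomers, 3 fell and 1 rose with pamidronate. With GGOH over pamidronate the 3 that had fallen rose, and the other was not called. Tmsb4x, thymosin beta 4, which holds monomers out of filaments (chromosome X, 167207093 to 167209315), had 265, 279 and 404 CPM in the pamidronate+GGOH libraries and 204, 214 and 170.3 CPM in the pamidronate libraries, against 1208, 1096 and 921 CPM in the control libraries. The treated groups both lay far below control. Tmsb4x was 5.48-fold lower with pamidronate than in control (-2.45 ± 0.17 (SE), adjusted p = 6.31e-08) and changed by only 0.69 ± 0.16 (SE) with pamidronate+GGOH against pamidronate (adjusted p = 0.00324), so that it remained 3.40-fold lower than control with GGOH (-1.77 ± 0.16 (SE), adjusted p = 5.75e-06), the largest deficit of any member in that comparison. Tmsb10, thymosin beta 10, its close relative (chromosome 6, 72957347 to 72958748), had 179.8, 158 and 168 CPM in the pamidronate+GGOH libraries and 184, 182 and 186 CPM in the pamidronate libraries, against 135, 137 and 134 CPM in the control libraries. Both treated groups lay above control. It rose by 0.44 ± 0.08 (SE) with pamidronate over control (adjusted p = 0.00014) and by 0.32 ± 0.08 (SE) with pamidronate+GGOH over control (adjusted p = 0.00354), with -0.13 ± 0.08 (SE) between the treated groups (adjusted p = 0.192). Of its 50-base words, 27.0% occur in other genes, mostly Gm9844.

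Pfn1, profilin, which feeds monomers to growing ends (chromosome 11, 70651850 to 70654644), had 359, 415 and 559.6 CPM in the pamidronate+GGOH libraries and 230.2, 248 and 234 CPM in the pamidronate libraries, against 643, 780.2 and 896 CPM in the control libraries. The groups did not overlap, and replicate 3 of pamidronate+GGOH came closest to control. It changed by -1.70 ± 0.16 (SE) with pamidronate against control (adjusted p = 7.74e-07) and 0.90 ± 0.15 (SE) with pamidronate+GGOH against pamidronate (adjusted p = 0.000377). Cap1, which recycles monomers from cofilin, changed by -1.80 ± 0.12 (SE) and 0.82 ± 0.12 (SE) in the same comparisons (adjusted p = 1.72e-08 and 5.85e-05).

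Of the 5 crosslinkers, 3 fell and 1 rose with pamidronate. Relative to pamidronate, 2 rose with GGOH, 1 fell and 2 were not called. Flna, filamin A, which holds filaments in an orthogonal mesh (chromosome X, 74223461 to 74249820), had 217, 273 and 387 CPM in the pamidronate+GGOH libraries and 105, 101 and 85.4 CPM in the pamidronate libraries, against 417, 486 and 550.4 CPM in the control libraries. The pamidronate libraries were all low, and the treated libraries with GGOH spread widely below control. Flna changed by -2.32 ± 0.20 (SE) with pamidronate against control (adjusted p = 2.93e-06), and was 3.02-fold higher with pamidronate+GGOH than with pamidronate (1.59 ± 0.20 (SE), adjusted p = 0.000102). Lcp1, L-plastin, the bundler of blood cells and the crosslinker with the highest mean TPM (chromosome 14, 75131101 to 75230842), had 1733, 1840.2 and 2044 CPM in the pamidronate+GGOH libraries and 1210.0, 1298 and 1078 CPM in the pamidronate libraries, against 2245, 2568 and 2761 CPM in the control libraries. The groups were again in order without overlap. It changed by -1.08 ± 0.12 (SE) with pamidronate against control (adjusted p = 1.59e-06) and 0.65 ± 0.12 (SE) with pamidronate+GGOH against pamidronate (adjusted p = 0.000413).

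Lasp1, a LIM and SH3 protein found at podosomes (chromosome 11, 97799000 to 97838764), had 255, 234 and 248 CPM in the pamidronate+GGOH libraries and 353, 376 and 363 CPM in the pamidronate libraries, against 219, 229.6 and 243 CPM in the control libraries. All pamidronate libraries lay above both other groups, which overlapped. It rose by 0.66 ± 0.08 (SE) with pamidronate over control (adjusted p = 5.16e-06) and changed by -0.57 ± 0.08 (SE) with pamidronate+GGOH against pamidronate (adjusted p = 5.93e-05). Pamidronate+GGOH against control gave 0.09 ± 0.08 (SE) (adjusted p = 0.355), which was called higher with upper-quartile scaling (0.30, adjusted p = 0.00664). The alpha-actinins, Actn1 and Actn4, parted. Actn1 fell by 0.73 with pamidronate (adjusted p = 1.6e-05), while Actn4 had 205, 201 and 214 CPM in the pamidronate+GGOH libraries and 214, 238 and 202 CPM in the pamidronate libraries, against 215, 241 and 255 CPM in the control libraries. Actn4 was called in no comparison, with -0.12 ± 0.09 (SE) for pamidronate against control (adjusted p = 0.242), -0.08 ± 0.09 (SE) for pamidronate+GGOH against pamidronate (adjusted p = 0.513) and -0.20 ± 0.09 (SE) for pamidronate+GGOH against control (adjusted p = 0.0793). This last value passed without pamidronate+GGOH replicate 3 (0.0453) or control replicate 1 (0.0224), and was 0.0035 with upper-quartile scaling.

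In the adhesion plaque, which ties filaments to integrins, 5 of 7 genes fell and 1 rose with pamidronate. Relative to pamidronate, 5 rose with GGOH, 1 fell and 1 was not called. Zyx, zyxin, a LIM protein of tensed filament ends (chromosome 6, 42349630 to 42360213), had 42.9, 36.8 and 48.6 CPM in the pamidronate+GGOH libraries and 19.7, 14.7 and 18.0 CPM in the pamidronate libraries, against 77.7, 83.9 and 106 CPM in the control libraries. The 3 groups did not overlap. Zyx was 5.11-fold lower with pamidronate than in control (-2.35 ± 0.15 (SE), adjusted p = 1.76e-08), changed by 1.29 ± 0.15 (SE) with pamidronate+GGOH against pamidronate (adjusted p = 1.07e-05) and remained -1.06 ± 0.14 (SE) against control (adjusted p = 4.41e-05). Vcl, vinculin, which joins talin to filaments (chromosome 14, 20929433 to 21033673), had 23.1, 26.7 and 30.1 CPM in the pamidronate+GGOH libraries and 20.1, 20.9 and 14.9 CPM in the pamidronate libraries, against 36.1, 41.3 and 44.7 CPM in the control libraries. Pamidronate replicate 3 was the lowest library and the groups stayed apart. It changed by -1.13 ± 0.14 (SE) with pamidronate against control (adjusted p = 5.04e-06) and 0.52 ± 0.14 (SE) with pamidronate+GGOH against pamidronate (adjusted p = 0.00699). Vcl shares 25.5% of its exon bases with Ap3m1 on the opposite strand, and since the strandedness of the libraries is not stated, reads of the genes cannot be told apart there.

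Tln1, talin, which binds the integrin tail and had the highest mean TPM of the plaque genes (chromosome 4, 43531519 to 43562691), had 602, 562 and 691 CPM in the pamidronate+GGOH libraries and 662, 638 and 652 CPM in the pamidronate libraries, against 663, 736 and 757 CPM in the control libraries. It was called in no comparison. Pamidronate against control gave -0.14 ± 0.10 (SE) (adjusted p = 0.211), pamidronate+GGOH against pamidronate -0.07 ± 0.10 (SE) (adjusted p = 0.567), and pamidronate+GGOH against control -0.22 ± 0.10 (SE) (adjusted p = 0.0803). That last value passed with DESeq2 (-0.24, adjusted p = 0.034), with no filter (0.03) and without pamidronate+GGOH replicate 3 (0.0115) or control replicate 1 (0.03), and the first passed with no filter (0.0468) and without pamidronate+GGOH replicate 3 (0.0484).

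Ptk2b, PYK2, the focal adhesion kinase relative of osteoclast podosomes (chromosome 14, 66153257 to 66281052), had 219, 170.2 and 189.7 CPM in the pamidronate+GGOH libraries and 239.8, 226 and 255 CPM in the pamidronate libraries, against 169.6, 160.2 and 157 CPM in the control libraries. It was the one plaque gene that rose with pamidronate, by 0.57 ± 0.10 (SE) (adjusted p = 0.000108). Pamidronate+GGOH against pamidronate gave -0.32 ± 0.10 (SE) (adjusted p = 0.0133), a call lost without pamidronate+GGOH replicate 2 (0.157), pamidronate+GGOH replicate 3 (0.0508) or pamidronate replicate 3 (0.0565). Pamidronate+GGOH against control gave 0.25 ± 0.10 (SE) (adjusted p = 0.043), a call lost with RLE factors (0.0575), with DESeq2 (0.0622), with no filter (0.104) and on leaving out any one library except pamidronate+GGOH replicate 2 or control replicate 1 (0.0545 to 0.249). Paxillin (Pxn), kindlin-3 (Fermt3), the integrin activator of blood cells, and Tks5 (Sh3pxd2a), a scaffold of podosomes, fell by 1.15, 1.59 and 1.13 on the log2 scale with pamidronate. They rose by 0.35, 0.85 and 0.46 with GGOH over pamidronate, and the Pxn call was lost without pamidronate replicate 3 (adjusted p = 0.0627).

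Myosin II, the motor that pulls on filaments, and the tropomyosins, which lie along them and set which partners bind, made up the last group. With pamidronate 6 of 7 genes fell and 1 rose. Relative to pamidronate, 4 rose with GGOH, 1 fell and 2 were not called. Myh9, the heavy chain of non-muscle myosin IIA (chromosome 15, 77760587 to 77842175), had 256, 286 and 337 CPM in the pamidronate+GGOH libraries and 154, 149 and 146 CPM in the pamidronate libraries, against 374, 451 and 501 CPM in the control libraries. The groups did not overlap. It was 2.95-fold lower with pamidronate than in control (-1.56 ± 0.12 (SE), adjusted p = 5.16e-08) and changed by 0.97 ± 0.12 (SE) with pamidronate+GGOH against pamidronate (adjusted p = 1.45e-05). Myl12b, a regulatory light chain (chromosome 17, 70973920 to 70990787), had 79.0, 83.5 and 100.4 CPM in the pamidronate+GGOH libraries and 44.1, 43.1 and 48.1 CPM in the pamidronate libraries, against 155, 175 and 178 CPM in the control libraries. It changed more than the heavy chain, by -1.91 ± 0.10 (SE) with pamidronate against control (adjusted p = 3.31e-09), and changed by 0.96 ± 0.10 (SE) with pamidronate+GGOH against pamidronate (adjusted p = 4.49e-06). Myl12a, the neighbouring light chain gene, changed by -0.73 ± 0.08 (SE) with pamidronate against control (adjusted p = 1.89e-06), and Myl6, the essential light chain, by -0.39 ± 0.09 (SE) (adjusted p = 0.00146). A further locus that the annotation also names Myl12b overlaps exons of both genes, 13.8% of the exon bases of Myl12a and 26.7% of those of Myl12b, so reads of either gene could have been shared with that locus.

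Tpm4, the short tropomyosin with the highest mean TPM of this group (chromosome 8, 72134975 to 72153142), had 207, 205 and 283 CPM in the pamidronate+GGOH libraries and 159.6, 152 and 124 CPM in the pamidronate libraries, against 482, 459.9 and 507 CPM in the control libraries. Pamidronate lay lowest and control highest. It was 3.33-fold lower with pamidronate than in control (-1.74 ± 0.13 (SE), adjusted p = 5.43e-08) and changed by 0.68 ± 0.13 (SE) with pamidronate+GGOH against pamidronate (adjusted p = 0.000614). Tpm1, which encodes the tropomyosins of muscle and of stress fibres (chromosome 9, 67022590 to 67049406), had 178, 145 and 126 CPM in the pamidronate+GGOH libraries and 311, 337 and 328 CPM in the pamidronate libraries, against 99.0, 87.6 and 88.4 CPM in the control libraries. The order was the opposite of that of Tpm4, with no overlap between groups. Tpm1 was 3.55-fold higher with pamidronate than in control (1.83 ± 0.11 (SE), adjusted p = 9.36e-09), 2.18-fold lower with pamidronate+GGOH than with pamidronate (-1.12 ± 0.11 (SE), adjusted p = 2.51e-06) and still higher than control with GGOH (0.71 ± 0.11 (SE), adjusted p = 0.00015). Tpm3 changed little, by -0.39 ± 0.08 (SE) with pamidronate against control (adjusted p = 0.000768), and 23.2% of its 50-base words occur in other genes.

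**Figure D4:**
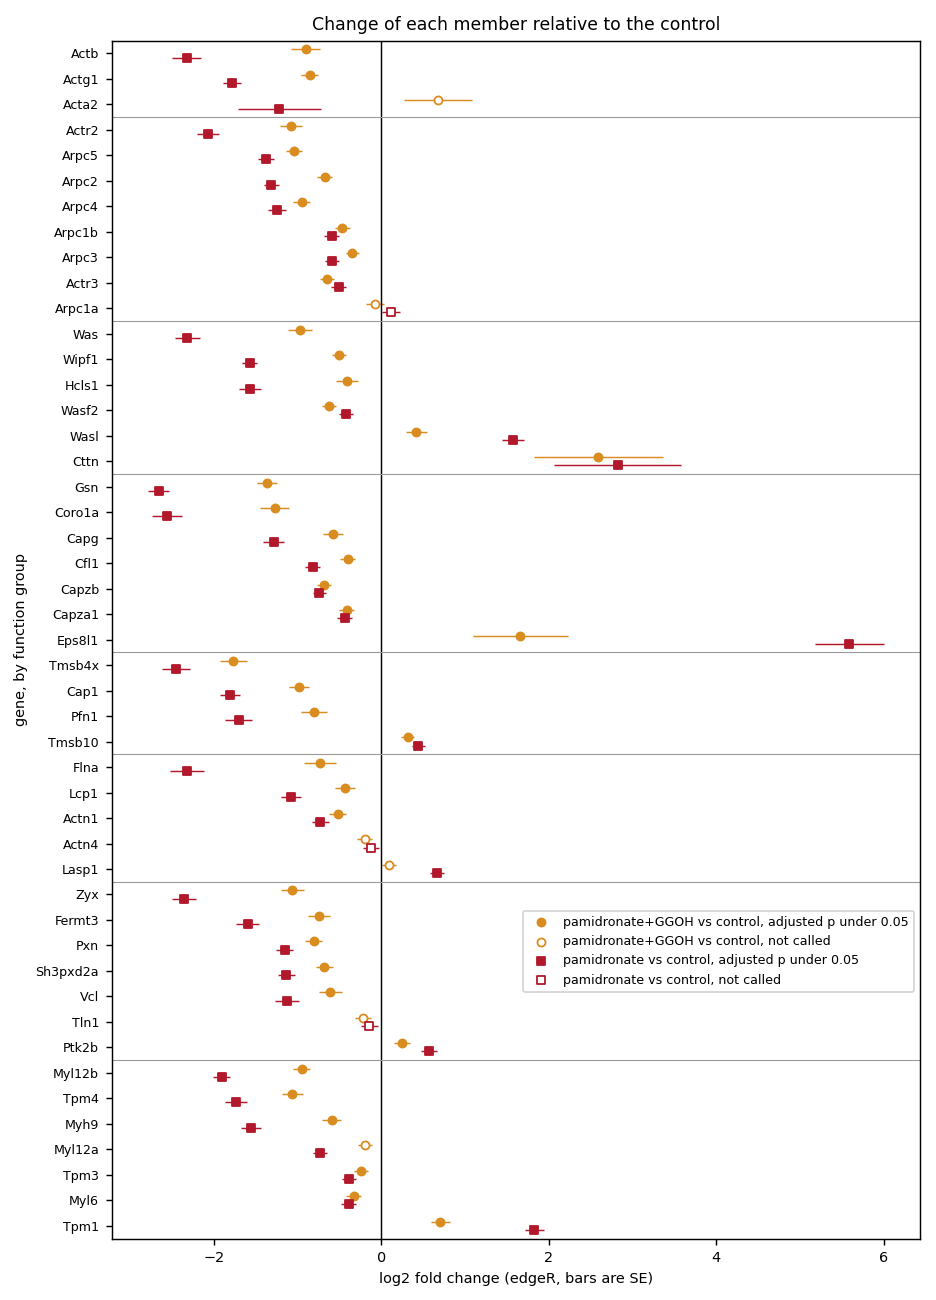
Points give the log2 fold change of each gene against control, circles for pamidronate+GGOH and squares for pamidronate, with bars for the SE from edgeR and open symbols where the adjusted p was not under 0.05. Squares lie left of 0 in most rows and circles mostly between the square and 0, with Eps8l1 at 5.59 for pamidronate the farthest to the right.

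Related genes were also set against each other, with 12 pairs chosen by shared function compared as ratios of TPM within each library. The ratio Wasl/Was was 1.40, 1.28 and 0.713 with pamidronate+GGOH and 4.60, 7.64 and 6.90 with pamidronate, against 0.466, 0.368 and 0.420 in control. N-WASP RNA thus exceeded WASP RNA in all pamidronate libraries and in none of the control libraries. The ratio Tpm1/Tpm4 was 0.292, 0.240 and 0.151 with pamidronate+GGOH and 0.663, 0.753 and 0.902 with pamidronate, against 0.0697, 0.0647 and 0.0593 in control. The mean Tmsb10/Tmsb4x ratio was 0.594 ± 0.140 with pamidronate+GGOH and 1.02 ± 0.136 with pamidronate, against 0.137 ± 0.0185 in control (SD, n = 3 each). Thymosin beta 10 and beta 4 RNA were thus near equal with pamidronate, where beta 4 was far ahead in control.

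Within the Arp2/3 complex, Actr2/Actr3 averaged 0.744 ± 0.109 with pamidronate+GGOH and 0.342 ± 0.0491 with pamidronate, against 1.01 ± 0.0318 in control. Arp2 RNA was level with Arp3 RNA in control and below it in all treated libraries. Capg/Gsn averaged 1.83 ± 0.142 with pamidronate+GGOH and 2.73 ± 0.147 with pamidronate, against 1.06 ± 0.0591 in control. Myl12b/Myl12a averaged 0.965 ± 0.101 with pamidronate+GGOH and 0.721 ± 0.0175 with pamidronate, against 1.63 ± 0.0434 in control. The gamma to beta actin ratio, Actg1/Actb, averaged 0.0809 ± 0.0109 with pamidronate+GGOH and 0.113 ± 0.00803 with pamidronate, against 0.0778 ± 0.00729 in control, so pamidronate+GGOH and control overlapped (exact permutation p = 0.7, two-sided).

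The ratios did not overlap in 11 of 12 pairs for pamidronate against control, 11 of 12 for pamidronate+GGOH against pamidronate, and 10 of 12 for pamidronate+GGOH against control. The pairs were chosen with earlier results of these data known, and over all 1081 pairs that the 47 members can form, 85.8%, 77.2% and 71.2% did not overlap in the same comparisons, so the counts for the 12 pairs say little about these pairs in particular. With 3 libraries against 3, the smallest two-sided exact permutation p is 0.1, and every pair without overlap reached it (0.113 after Benjamini-Hochberg adjustment over the 36 tests), so this design cannot pass 0.05 for a single ratio. The pairs that overlapped were Acta2/Actb, in pamidronate against control and in pamidronate+GGOH against pamidronate (exact permutation p = 0.2 and 0.3), and, in pamidronate+GGOH against control, Actg1/Actb and Cttn/Hcls1 (exact permutation p = 0.7 and 0.2).

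**Figure D5:**
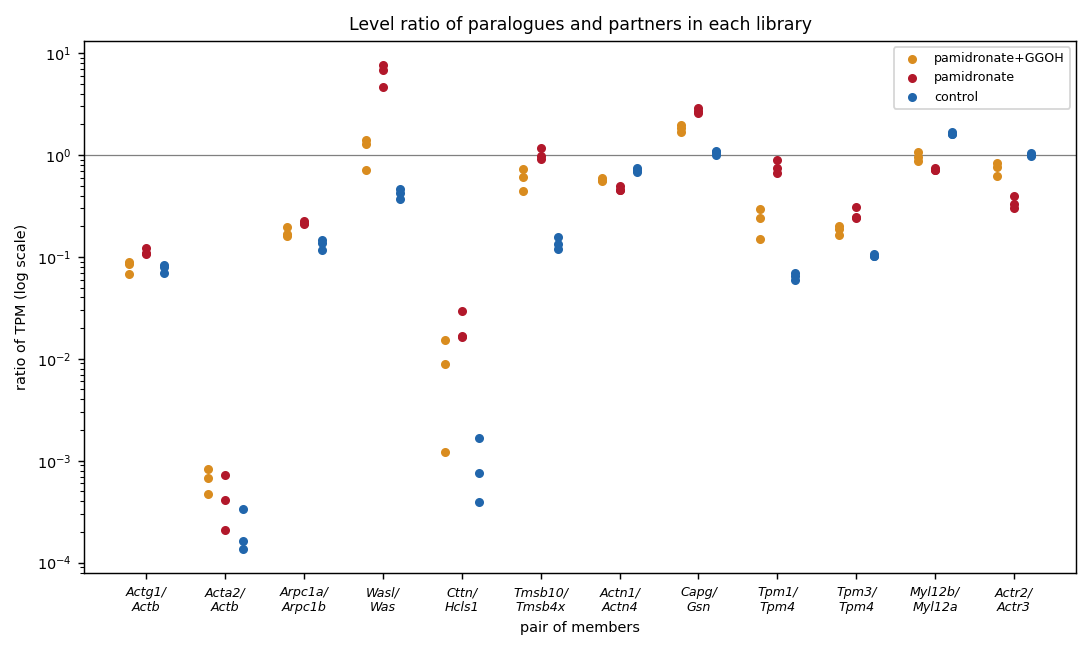
Points give the ratio of TPM of 12 gene pairs in each library on a log axis, with pamidronate+GGOH left of pamidronate and control at the right of each pair. The pamidronate points of Wasl/Was, at 4.60 to 7.64, lie above the line at 1 and the control points, at 0.368 to 0.466, below it.

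Genes of the same pathways outside the set were counted from lists chosen by function. Over all tested genes, 36.2% were called higher and 32.9% lower with pamidronate. With pamidronate+GGOH against pamidronate the shares were 25.2% and 23.6%. Counts near these shares say little about a list in particular, which holds for each list below. The list nearest the set, other podosome, adhesion and membrane linker genes, also mostly fell, with 37 of 48 tested genes lower and 4 higher with pamidronate (median -1.002), and 32 higher and 3 lower with pamidronate+GGOH against pamidronate (median 0.66). Nedd9, an adaptor of the p130Cas family, changed by -4.34 ± 0.91 (SE) with pamidronate against control (adjusted p = 0.00219), while Bcar1, p130Cas itself, rose by 3.67 ± 0.39 (SE) (adjusted p = 1.3e-06) and was -0.47 ± 0.29 (SE) with pamidronate+GGOH against pamidronate (adjusted p = 0.203). Src, named after its values were seen because it is the main kinase of osteoclast podosomes, rose by 0.82 ± 0.14 (SE) with pamidronate (adjusted p = 9.87e-05).

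Other genes of filament turnover fell in 17 and rose in 4 of 26 tested with pamidronate (median -0.60), and rose in 11 and fell in 4 with GGOH over pamidronate (median 0.22). Gmfg, glia maturation factor gamma, which takes branches apart in blood cells, and Twf2, a twinfilin that binds monomers and caps ends, fell by 3.03 and 2.56 with pamidronate (adjusted p = 1.85e-07 and 8e-09) and rose by 1.99 and 1.46 with GGOH over pamidronate (adjusted p = 3.9e-05 and 4.53e-06). Formins and WAVE complex genes were more evenly divided, with 16 of 26 lower and 10 higher with pamidronate (median -0.46) and 7 higher and 8 lower with GGOH over pamidronate (median 0.16). The formins Diaph2 and Fmnl1 fell by 2.41 and 2.01 with pamidronate (adjusted p = 5.57e-07 and 2.18e-07), whereas the formin Fhod3 rose by 1.70 ± 0.26 (SE) (adjusted p = 4.51e-05).

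Other myosin, tropomyosin and filamin genes showed no common direction, with 6 of 16 higher and 7 lower with pamidronate (median -0.07) and 8 higher and 3 lower with GGOH over pamidronate (median 0.15). Myh10, the heavy chain of non-muscle myosin IIB, averaged 15.4 CPM with pamidronate+GGOH and 27.7 CPM with pamidronate, against 3.47 CPM in control. It rose by 2.99 ± 0.20 (SE) with pamidronate (adjusted p = 2.18e-08), in the direction opposite to Myh9. Serum response factor, its coactivators and known targets outside the set numbered 12 tested genes, of which 5 rose and 6 fell with pamidronate (median -0.02) and 3 rose and 3 fell with GGOH over pamidronate (median 0.01). The 5 include Cnn1 and Myh11, which had 4 and 3 counts over the control libraries. Both passed the filter on low counts only through treated libraries, so their calls were in part fixed by the filter. Srf itself, named after its values were seen, fell by 0.59 with pamidronate (adjusted p = 0.000494). For Cnn1, a calponin of smooth muscle, the fitted log2 fold change of 3.72 ± 0.65 (SE) with pamidronate against control is given as a description. Its mean was 0.621 CPM with pamidronate+GGOH and 1.12 CPM with pamidronate, against 0.0771 CPM in control.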

How the data were processed

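RNA of 9 RAW 264.7 samples was sequenced from 300 ng of total RNA after removal of ribosomal RNA, with 1 batch label for all. The authors deposited raw counts for 49315 genes, and TPM values that equal the count over exon length scaled to 1 sum per library (largest difference 5e-05). Trimmomatic 0.36 and GRCm38 were used, and DESeq is named without a version or role, per the submitters' processing notes. For the aligner, the counter and whether libraries kept strand, a statement is not given in the sources used here.

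Counts were tested with edgeR 4.0.16 (R 4.3.3): filterByExpr, TMM factors, 1 model of all 3 groups with a robust quasi-likelihood fit, and Benjamini-Hochberg adjustment over 15963 genes, calling at an adjusted p under 0.05. CPM are counts scaled with the TMM factors. TPM served for sums and ratios, with exact permutation tests. DESeq2 1.42.0, limma-voom (limma 3.58.1), other scalings and filters, a replicate block, a 1.5-fold threshold, stricter adjusted p and leaving out each library were alternatives. Residual degrees of freedom were 6 and the biological coefficient of variation 0.127. No library was a copy of another: chi-square over its degrees of freedom was 4.00 to 37.2 between replicates. Data were simulated with 200 genes drawn to differ and the same dispersion for all genes, of which 15505 were tested. The pamidronate against control test found 40% of the genes set to differ 1.5-fold, 85.5% at 2-fold and 100% at 4-fold, and called 4 genes that did not differ. In the real comparison 69.2% of tested genes were called, so these rates need not hold there. Same-numbered libraries deviated together with correlations of 0.013 to 0.049 for pamidronate and control, so the numbers were not taken to pair samples.

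The members, lists and pairs were chosen with earlier results of these data known. Values in every sample are given for the member of each function group with the highest mean TPM, the called member with the largest change in each comparison, those called against most of their group, a set of 18 well-known genes, and members called in no comparison. Up to 3 called genes per comparison were taken from each related list, and not all are named, and 1 related list and some genes are not reported here. Actr3 was also given in every sample, after its values were seen, as the partner of Actr2. Exon overlaps and 50-base words shared between transcripts were computed from GENCODE M21 on GRCm38, and promoters are from RefSeq.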

Additional observations from a re-analysis of the deposited data

How the results depend on the processing

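Counts of called members and counts of gene pairs whose ratios did not overlap held within 1.5 times in 126 of 135 alternative values. The 9 that moved further were all counts of called members. Counts of gene pairs could not move that far under the alternatives used, so their part of the 126 is no test of stability. Against a 1.5-fold threshold (edgeR's glmTreat), 4 members rose with pamidronate over control, 13 rose and 3 fell with pamidronate+GGOH against pamidronate, and 1 was higher and 13 lower with pamidronate+GGOH than in control. At an adjusted p under 0.01, 2 were higher with pamidronate+GGOH than in control. Leaving out 1 library gave 2 to 5 members higher in that comparison, with 2 without pamidronate+GGOH replicate 1 and 3 without control replicate 2 or control replicate 3, against 6 with all libraries. With the replicate number as a block, 7 members rose and 36 fell with pamidronate over control, 29 rose and 5 fell with pamidronate+GGOH over pamidronate, and 6 were higher and 35 lower with pamidronate+GGOH than in control. The Acta2 call for pamidronate against control was lost there (adjusted p = 0.0638). Same-numbered libraries correlated at -0.224 to -0.022 for pamidronate+GGOH with pamidronate and -0.038 to 0.205 for pamidronate+GGOH with control.

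Among the alternative values for single members, 10 changed sign, none of them called. With upper-quartile scaling these were Actn4 (0.072) and Tln1 (0.052) for pamidronate against control, and Arpc1a (0.13), Actn4 (0.0035) and Myl12a (0.0094) for pamidronate+GGOH against control. With 1 library left out in turn, Arpc1a ran from -0.01 (without control replicate 3) to 0.137 for pamidronate against control. For pamidronate+GGOH against pamidronate, Cttn ran from -0.974 to 0.33 (without pamidronate+GGOH replicate 3), Tln1 from -0.118 to 0.0391 (without pamidronate+GGOH replicate 2), and Capza1 from -0.0603 and Myl6 from -0.022 (both without pamidronate replicate 3) to 0.0897 and 0.14. The cause was not tested. For pamidronate+GGOH against control, the calls of Hcls1, Lcp1, Arpc3, Myl6 and Tpm3 were lost with upper-quartile scaling (adjusted p = 0.0906 to 0.681), and those of Hcls1 and Tpm3 also without single libraries. For the 12 pairs, the count of ratios without overlap stayed within 1.5 times under each alternative, but this was fixed in advance. CPM in place of TPM shifts all ratios of a pair alike. With 10 or 11 of the 12 pairs already without overlap, leaving out a library could only keep or raise the count. Scarce genes limit precision: Cttn, Eps8l1 and Acta2 rest on few counts, and for Actn4 and Tln1 no call with all libraries does not show that the groups were alike.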
